A study of Capra hircus with 25 samples.

Results

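The family of miR-15, miR-16, miR-195 and miR-497 was followed in the liver of goat kids from birth to 12 weeks of age. Its members were taken by name, as every entry of the miRNA table with the stem miR-15a, miR-15b, miR-16a, miR-16b, miR-195 or miR-497, with either arm of the hairpin and any species prefix. This rule found 12 of the 463 entries, which are the 5p and 3p arms of 6 hairpins, all with goat names (prefix chi-, left out below): chi-miR-15a-5p, chi-miR-15a-3p, chi-miR-16a-5p, chi-miR-16a-3p, chi-miR-15b-5p, chi-miR-15b-3p, chi-miR-16b-5p, chi-miR-16b-3p, chi-miR-195-5p, chi-miR-195-3p, chi-miR-497-5p and chi-miR-497-3p. A shorter list of names given for the family held 8 of them, without the arms of miR-15a and miR-16a, and all 12 are described here.

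The samples were livers of Laiwu black goat kids (Capra hircus, a Chinese breed of domestic goat) aged 1 day or 2, 4, 8 or 12 weeks, with 5 libraries at each age and 25 in all. No treatment or genetic change is named for any group, and nothing on sex, litter or feeding is given in the sources used here. The design compares age only, and every contrast with birth uses the same 5 libraries of 1 day. Whether each library is a separate animal is not stated by the labels. The p-values below therefore measure only library-to-library spread, part of which may be technical.

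The family is defined by a shared seed, the short stretch at the 5′ end of a miRNA that pairs with target messenger RNAs. In human and mouse cells its 5p arms repress cyclins D1, D3 and E1, the kinase CDK6 and the survival factor BCL2, and slow entry into the cell cycle. The liver grows by cell division for some time after birth in mammals, which makes a family of cell cycle repressors of interest over these ages. The members come as pairs from clustered genes: in the goat assembly ARS1.2, MIR15A lies beside MIR16A, MIR15B beside MIR16B inside the gene SMC4, and MIR195 beside MIR497. The 3p arms of these hairpins carry other seeds and usually are the less stable strand.

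The values are RPM, that is, miRNA reads scaled to a common library size. Reads worked back from these values sum to 7169464 to 12096213 per library over all entries. A single read was worth 0.0838 to 0.142 RPM, and a count of 0 allows a level of up to 3 reads, or 0.251 to 0.425 RPM, counting error only. The liver markers fixed for this work (7 entries of miR-122, miR-192, miR-194 and miR-148a) summed to between 204323 and 302434 RPM in the 25 libraries. The 4-week libraries did not lie together: median-ratio scaling, described below, divides replicates 1 and 2 by 0.91 and 0.82 and replicates 3, 4 and 5 by 1.15, 1.18 and 1.11. Members named as called at 4 weeks, with or without replicates 1 and 2, have both values below. Values after ± are the SD over 5 libraries for levels and the standard error for log2 changes.

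The 5p arms differed in level by more than 100-fold, and 1 of them held most of the family's reads. Over all 25 libraries miR-16a-5p averaged 11052 RPM, rank 18 of the 463 entries by mean level. It was followed by miR-16b-5p with 1708 RPM (rank 59), miR-15a-5p with 799 RPM (rank 76), miR-15b-5p with 525 RPM (rank 95), miR-497-5p with 147 RPM (rank 147) and miR-195-5p with 43.1 RPM. At 1 day miR-15a-5p (595 ± 74.5 RPM) and miR-15b-5p (574 ± 75.1 RPM) did not differ beyond their spread, and all other neighbours in this order were apart in every 1-day library. The 6 arms together held 1.03% ± 0.0564 of the reads at 1 day and 1.68% ± 0.116 at 12 weeks (n = 5 each). Their summed level was 10433 ± 582 RPM at 1 day, 12379 ± 1512 at 2 weeks, 15248 ± 2804 at 4 weeks, 16270 ± 1695 at 8 weeks and 17041 ± 1193 at 12 weeks. Within that sum the share of miR-16a-5p went from 72.4% ± 0.615 to 80.9% ± 1.85, that of miR-16b-5p from 15.03% ± 1.02 to 10.3% ± 0.472, and that of miR-15b-5p from 5.49% ± 0.487 to 2.42% ± 0.299. miR-16a-5p and miR-16b-5p are near-identical in cattle, nothing on how reads matching both were assigned is given in the sources used here, and the division between these entries is uncertain for that reason. A like caution holds for miR-15a-5p and miR-15b-5p, which share much of their sequence.

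**Figure D1:**
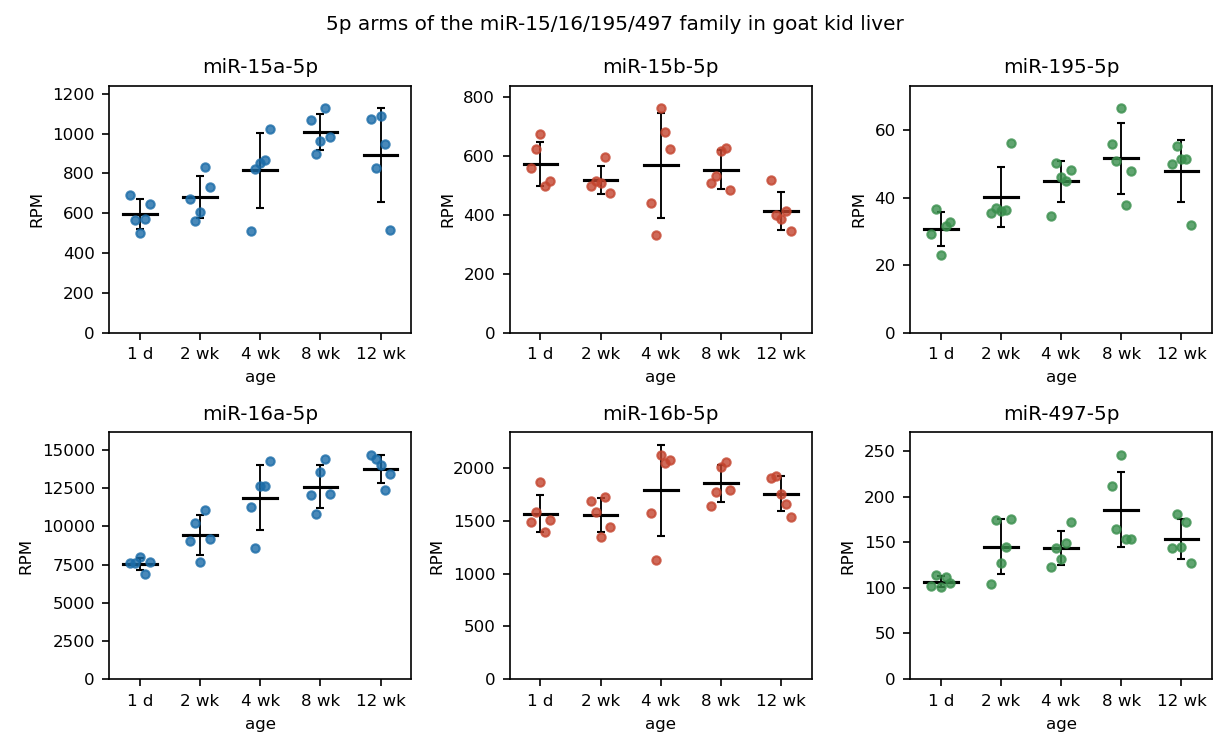
Levels of the 6 family 5p arms (y axis, RPM, each panel from 0 on its own scale) at 5 ages (x axis). Points are libraries, 5 per age, and bars are the mean ± SD. miR-16a-5p runs from 7554 RPM at 1 day to 13774 RPM at 12 weeks, while miR-15b-5p ends at 413 RPM, below its 574 RPM at 1 day.

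The pair of miR-15a and miR-16a, which in humans is often lost in chronic lymphocytic leukaemia, was higher in the older livers. miR-16a-5p was at 7593, 7622, 7972, 6909 and 7673 RPM in the 1-day libraries and at 14689, 14400, 13996, 12363 and 13424 RPM in the 12-week libraries. Every 12-week library was above every 1-day library. Between these ages stood 7680 to 11065 RPM at 2 weeks, where 1 library lay within the 1-day range, 8572 to 14278 RPM at 4 weeks and 10804 to 14453 RPM at 8 weeks, both wholly above it. In limma, fitted to all miRNAs and adjusted by Benjamini-Hochberg over 405 of them, miR-16a-5p rose at 4 weeks (log2 change 0.63 ± 0.11, adjusted p = 0.000156, and 0.80 with adjusted p = 1.73e-05 without 4-week replicates 1 and 2), 8 weeks (0.73 ± 0.11, adjusted p = 9.83e-06) and 12 weeks (0.87 ± 0.11, 1.82-fold, adjusted p = 3.69e-07). At 2 weeks its log2 change of 0.31 ± 0.11 did not pass (adjusted p = 0.0876), and passed without 2-week replicate 3 (adjusted p = 0.0423) and without 4-week replicates 1 and 2 (adjusted p = 0.0348). Leaving out the 4-week libraries did not alter the 2-week change, only the spread that limma shares over the ages and the adjustment.

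miR-15a-5p was at 693, 566, 502, 571 and 646 RPM at 1 day and at 1070, 896, 966, 1127 and 983 RPM at 8 weeks, with no overlap. At 12 weeks it was at 1076, 826, 1092, 951 and 517 RPM, so that replicate 5 fell within the 1-day range and the other 4 libraries lay above it. It rose at 8 weeks (log2 change 0.76 ± 0.18, limma, Benjamini-Hochberg adjusted p = 0.000831) and at 12 weeks (0.54 ± 0.18, adjusted p = 0.00948). At 4 weeks its values of 512 to 1025 RPM gave a log2 change of 0.43 ± 0.18 that missed the threshold (adjusted p = 0.0631), and it passed without 4-week replicate 1 (adjusted p = 0.0137) and without replicates 1 and 2 (0.62, adjusted p = 0.0211). At 2 weeks it had 681 ± 107 RPM (log2 change 0.19 ± 0.18, adjusted p = 0.476).

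The passenger arms of this pair were near the limit of detection. miR-15a-3p had 0 to 5 reads in a library, never reached 1 RPM and was not tested. miR-16a-3p was at 0.92 to 4.01 RPM, with 1.86 ± 0.534 RPM at 1 day and 2.21 ± 0.826 RPM at 12 weeks (log2 change 0.14 ± 0.21, limma, adjusted p = 0.558). The 5p arm of miR-16a outnumbered its 3p arm by 2596 to 14937 reads to 1.

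The pair of miR-15b and miR-16b, which share the SMC4 locus, was not called higher in the deposited RPM with all libraries included. miR-16b-5p was at 1491, 1591, 1869, 1399 and 1506 RPM at 1 day and at 1912, 1929, 1759, 1659 and 1541 RPM at 12 weeks. The ranges of these ages overlapped, and miR-16b-5p passed in none of the 4 contrasts with 1 day (log2 changes −0.01, 0.16, 0.24 and 0.17, each ± 0.14, adjusted p from 0.125 to 0.965, limma). Without 4-week replicates 1 and 2 miR-16b-5p passed in limma at 4 weeks (log2 change 0.42, adjusted p = 0.0128) and at 8 weeks (0.24, adjusted p = 0.0317). Without replicate 2 alone it passed at 4 weeks (0.31, adjusted p = 0.038). The 8-week change was 0.24 in both fits, and only the spread shared over the ages and the adjustment differed. The result for miR-16b-5p also depended on the scaling of the libraries. Under the median-ratio scaling described below it rose at 4 weeks (0.42, adjusted p = 0.00136), 8 weeks (0.67, adjusted p = 2.44e-06) and 12 weeks (0.75, adjusted p = 2.3e-07, limma).

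miR-15b-5p was at 558, 624, 676, 498.5 and 514 RPM at 1 day and at 520, 399, 386, 413 and 346 RPM at 12 weeks. The 12-week libraries lay lower, except that replicate 1 fell inside the 1-day range. Its log2 change of −0.48 ± 0.17 passed (0.718-fold, limma, Benjamini-Hochberg adjusted p = 0.0147), and those at 2, 4 and 8 weeks (−0.14, −0.07 and −0.05, each ± 0.17) did not. With median-ratio scaling it was called higher at 8 weeks (0.37, limma, adjusted p = 0.0123). At 4 weeks the libraries split, with 439 and 332 RPM in replicates 1 and 2 and 762, 683 and 624 RPM in replicates 3, 4 and 5.

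The 3p arms of this pair were lower at 12 weeks in the deposited RPM too. miR-15b-3p was at 8.38, 9.01, 10.8, 8.71 and 9.30 RPM at 1 day and at 7.34, 5.11, 4.73, 5.75 and 3.57 RPM at 12 weeks, without overlap (log2 change −0.72 ± 0.23, limma, adjusted p = 0.00832). miR-16b-3p was at 9.56 to 13.0 RPM at 1 day and 5.42 to 10.5 RPM at 12 weeks, where replicate 1 overlapped the 1-day libraries. Its log2 change of −0.56 ± 0.24 passed narrowly (adjusted p = 0.0446), and the call was lost in 8 of 10 fits with 1 library left out, at most with adjusted p = 0.102 without 12-week replicate 5. It stayed called only without 1-day replicate 5 or 12-week replicate 1. At 4 weeks it was called higher without replicates 1 and 2 (0.61, limma, adjusted p = 0.0353) and not with them.

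miR-195 and miR-497, the least abundant pair, were higher in older livers in their 5p arms. In mouse heart miR-195 is known to rise after birth and to curb division of cardiomyocytes. miR-195-5p was at 29.3, 36.7, 22.9, 31.6 and 32.7 RPM at 1 day, at 55.7, 50.7, 66.4, 37.8 and 47.9 RPM at 8 weeks and at 49.9, 55.3, 51.3, 51.3 and 31.9 RPM at 12 weeks. The 8-week libraries all lay above those of 1 day, and at 12 weeks only replicate 5 did not. It rose at 4 weeks (log2 change 0.54 ± 0.18, limma, Benjamini-Hochberg adjusted p = 0.0201), 8 weeks (0.73 ± 0.18, adjusted p = 0.00115) and 12 weeks (0.62 ± 0.18, adjusted p = 0.0032). The 4-week call was lost without 1-day replicate 3 (adjusted p = 0.0684), the lowest of the 1-day libraries, and held without 4-week replicates 1 and 2 (0.60, adjusted p = 0.0376).

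miR-497-5p was at 102, 114, 101, 112 and 105 RPM at 1 day, a narrow range, and at 211, 165, 246, 154 and 153 RPM at 8 weeks. At 12 weeks it was at 143.8, 181, 144.6, 172 and 127 RPM. All libraries of 4, 8 and 12 weeks lay above all 1-day libraries, and at 2 weeks 4 of 5 did. It rose at 8 weeks (log2 change 0.77 ± 0.16, limma, adjusted p = 0.000205) and 12 weeks (0.51 ± 0.16, adjusted p = 0.00536). The rise at 4 weeks (0.42 ± 0.16, adjusted p = 0.0396) was lost in 6 of the 10 leave-one-out fits, those without 1-day replicate 1, 3 or 5 or 4-week replicate 2, 4 or 5 (adjusted p up to 0.0935), and without 4-week replicates 1 and 2 together (adjusted p = 0.0506). At 2 weeks the log2 change of 0.41 ± 0.16 did not pass (adjusted p = 0.1), but did without 2-week replicate 1 (adjusted p = 0.0391).

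The 3p arm of miR-195 was more than a trace, with 1 read for every 2.6 to 7.27 reads of the 5p arm. It was at 5.76, 6.99, 8.64, 11.3 and 7.75 RPM at 1 day and at 10.2, 14.6, 12.7, 13.6 and 11.4 RPM at 12 weeks, where 1-day replicate 4 overlapped. Its log2 change of 0.59 ± 0.21 passed at 12 weeks (limma, adjusted p = 0.0146), but not without 1-day replicate 1 (adjusted p = 0.0502). At 8 weeks, with 8.06 to 16.2 RPM, it did not pass (0.41 ± 0.21, adjusted p = 0.0877), but did without 1-day replicate 4 (adjusted p = 0.0367) or 8-week replicate 1 (adjusted p = 0.0499).

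Counted over the family, 11 of the 12 members passed the filter of 1 RPM or more in at least 5 libraries, miR-497-3p through exactly 5. At 2 weeks none of the 11 was called, against 5.68% of all 405 tested miRNAs (limma, adjusted p under 0.05). Before adjustment 3 of the 11 had a p under 0.05 (limma). The share of all tested at that unadjusted threshold was not worked out, and 5.68% is not that share. At 4 weeks 3 were called, all higher, against 8.4% of all tested called higher and 36.8% called either way. At 8 weeks 4 were called, all higher, against 13.1% called higher and 62.2% called either way. At 12 weeks 8 were called, 5 higher and 3 lower, against 11.6% called higher, 54.8% called lower and 66.4% called either way. Without 4-week replicates 1 and 2 the counts at 2, 4, 8 and 12 weeks were 1, 5, 5 and 8. The median log2 change of the 11 at 12 weeks was 0.51, beside −0.54 over all 405. That median was 0.13 without 12-week replicate 1 and 0.16 without replicate 3, the 12-week libraries that hold miR-497-3p, 0.34 with no filter, 0.30 with a pseudocount of 10, 0.81 with TMM scaling and 0.85 with median-ratio scaling. Over the 5 ages the F test called miR-16a-5p (adjusted p = 1.77e-06), miR-497-5p (0.00241), miR-15a-5p (0.00453) and miR-195-5p (0.00668), against 64.7% of all tested, and 8 members without 4-week replicate 2 or without replicates 1 and 2. In 12-week against 1-day libraries 3 of the 11 did not overlap, miR-16a-5p and miR-497-5p higher and miR-15b-3p lower, against 8.4% of all tested that lay wholly higher and 44.7% wholly lower. With median-ratio scaling 6 lay wholly higher, miR-15a-5p, miR-16a-5p, miR-16b-5p, miR-195-5p, miR-195-3p and miR-497-5p, and none lower, against 23.2% and 25.2% of all tested. No member was called between successive ages, 2 to 4, 4 to 8 or 8 to 12 weeks, where 2.96%, 6.91% and 1.23% of all tested were. In each step 1 member had an unadjusted p under 0.05 (limma), again with no share of all tested at that threshold. Without 4-week replicates 1 and 2 the steps had 2, 2 and 1 members called. The share of all tested miRNAs called was not worked out for fits without some libraries. The member counts of those fits therefore have no share to be read against.

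**Figure D2:**
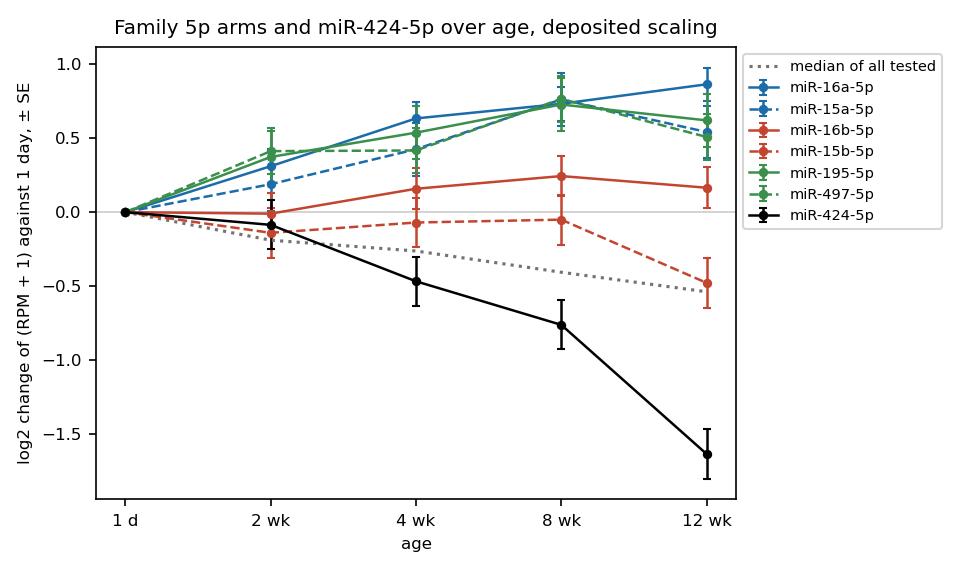
Log2 change of (RPM + 1) against 1 day (y axis) over age (x axis, ages at equal spacing) for the 6 family 5p arms and miR-424-5p, with standard errors from limma, 5 libraries per age. The dotted line is the median of all 405 tested miRNAs. miR-16a-5p, miR-15a-5p, miR-195-5p and miR-497-5p end between 0.51 and 0.87, miR-16b-5p at 0.17, miR-15b-5p at −0.48 and miR-424-5p at −1.64.

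The lower calls depend on how libraries are scaled. Most miRNAs were lower in older livers in the deposited RPM, with a median log2 change of −0.19, −0.26, −0.41 and −0.54 at 2, 4, 8 and 12 weeks. Median-ratio scaling (RLE), which sets each library so that its typical miRNA does not move, brings these medians to 0.02, −0.03, −0.04 and −0.01. Under it 3, 5, 7 and 7 members were called at 2, 4, 8 and 12 weeks, all of them higher, against 7.41%, 29.9%, 50.6% and 61.7% of all tested called either way. Of all tested, 11.9% were called lower at 4 weeks and 25.4% at 8 weeks, and the rest of the calls at these ages were higher. The share at 2 weeks is not split by direction. At 12 weeks 29.1% of all tested were called higher and 32.6% lower. The log2 changes were then 1.45 for miR-16a-5p, 1.19 for miR-195-5p, 1.13 for miR-15a-5p, 1.12 for miR-195-3p, 1.09 for miR-497-5p, 0.75 for miR-16b-5p and 0.52 for miR-16a-3p. miR-15b-5p turned from −0.48 to 0.11 (adjusted p = 0.453, limma), and miR-15b-3p and miR-16b-3p, at −0.21 and −0.03, no longer passed. TMM scaling called 6 members at 12 weeks, all higher, without miR-16a-3p, and the share of all tested was not worked out for it. The deposited data do not show which scaling is closer to molecules per cell.

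**Figure D3:**
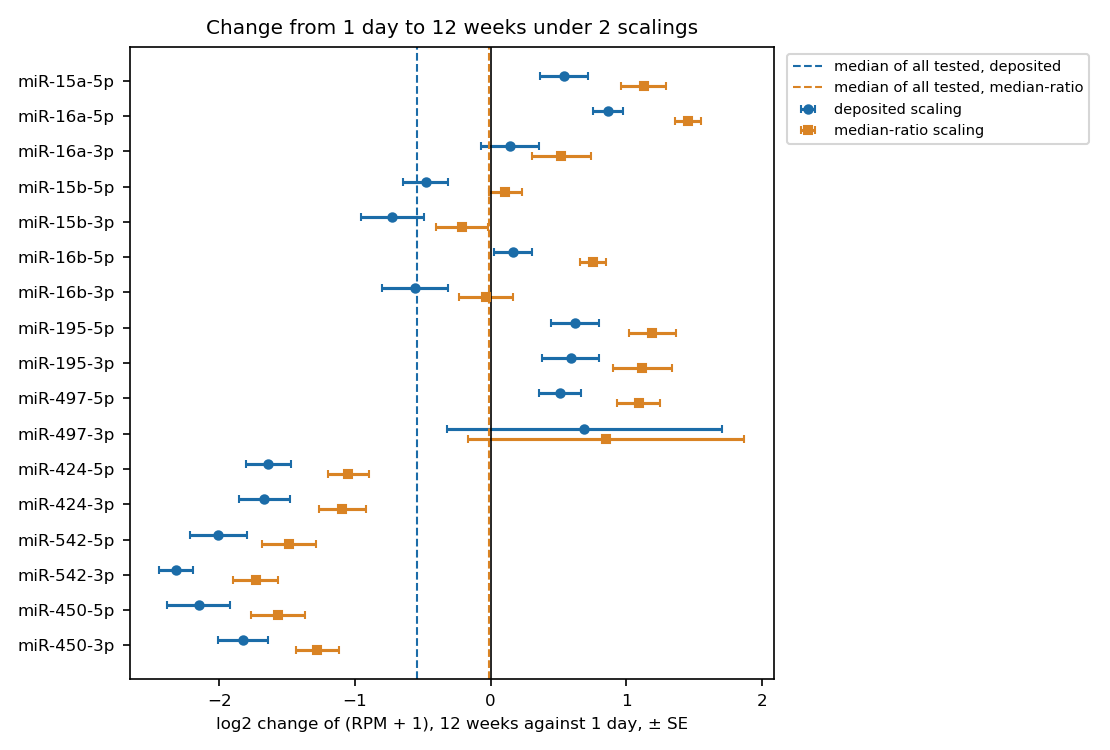
Log2 change of (RPM + 1) from 1 day to 12 weeks (x axis, ± standard error, 5 libraries per age) for the 11 tested family members and the 6 listed relatives and neighbours (y axis), under the deposited scaling (circles) and median-ratio scaling (squares). Dashed lines mark the median of 405 miRNAs, −0.54 and −0.01. miR-15b-5p moves from −0.48 to 0.11 between the scalings, while miR-16a-5p is above 0 in both (0.87 and 1.45) and miR-424-5p below 0 in both (−1.64 and −1.05).

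Ratios of 2 members within a library do not depend on its scaling. The 9 ratios of the plan, at 4 ages against 1 day, made 36 tests, and none passed when adjusted over these (exact two-sided permutation test over libraries, smallest Benjamini-Hochberg adjusted p = 0.0571, 11 with an unadjusted p under 0.05). With 5 against 5 libraries the smallest p a test can give is 0.00794. Another 4 ratios, those of miR-15a-5p to miR-16a-5p, miR-15a-5p to miR-15b-5p, miR-16a-5p to miR-16b-5p and the 2 pairs, were chosen after values were seen. With them the family grew to 52 tests and 17 passed, 10 of them in the ratios chosen afterwards and 7 in those of the plan (exact permutation test, adjusted p of 0.0275 or more). Those 17 rest on the added ratios, so the ratios below are given as values with no call.

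Reads of miR-16a-5p per read of miR-16b-5p, a ratio chosen after values were seen, were 5.09, 4.79, 4.27, 4.94 and 5.09 in the 1-day libraries and 7.68, 7.46, 7.96, 7.45 and 8.71 in the 12-week libraries. The means were 6.05 ± 0.506 at 2 weeks, 6.74 ± 0.674 at 4 weeks and 6.79 ± 0.465 at 8 weeks. All libraries of each later age lay above all 1-day libraries, with the ratio 1.25, 1.39, 1.40 and 1.62-fold that of 1 day at 2, 4, 8 and 12 weeks.

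The ratio of miR-15a-5p to miR-15b-5p, also chosen afterwards, was 1.24, 0.907, 0.742, 1.15 and 1.26 at 1 day, 2.11, 1.69, 1.56, 1.79 and 2.03 at 8 weeks and 2.07, 2.07, 2.83, 2.30 and 1.49 at 12 weeks. It was 1.76-fold that of 1 day at 8 weeks and 2.03-fold at 12 weeks, without overlap. For both pairs together, miR-15a-5p plus miR-16a-5p over miR-15b-5p plus miR-16b-5p stood at 3.83 ± 0.32 at 1 day, 4.86 ± 0.38 at 2 weeks, 5.51 ± 0.701 at 4 weeks, 5.65 ± 0.387 at 8 weeks and 6.77 ± 0.42 at 12 weeks. This ratio was 1.27, 1.43, 1.48 and 1.77-fold that of 1 day, with all libraries of each later age above those of 1 day.

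Among the ratios of the plan, miR-15b-5p per read of miR-16b-5p was 0.365 ± 0.0194 at 1 day, 0.298 ± 0.0158 at 8 weeks and 0.234 ± 0.0261 at 12 weeks, with no overlap with 1 day at either age (0.815-fold and 0.639-fold, exact permutation test, adjusted p = 0.0571 for both over the 36 tests). The ratio of miR-195-5p to miR-497-5p was 0.286 ± 0.0362 at 1 day and 0.312 ± 0.0419 at 12 weeks, and its log2 change lay between −0.03 and 0.13 at the 4 ages. miR-15a-5p over miR-16a-5p, chosen afterwards, was 0.0791 ± 0.0108 at 1 day and 0.0648 ± 0.0169 at 12 weeks, a log2 change of −0.32 ± 0.21. The differences between these pairs in how their ratios changed were not tested. The sum of miR-15b-5p and miR-16b-5p over that of miR-195-5p and miR-497-5p was 15.7 ± 2.82 at 1 day, 10.5 ± 2.41 at 8 weeks and 10.9 ± 1.36 at 12 weeks, that is, 0.662-fold and 0.697-fold (exact permutation test, adjusted p = 0.0816 and 0.0571 over the 36 tests).

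**Figure D4:**
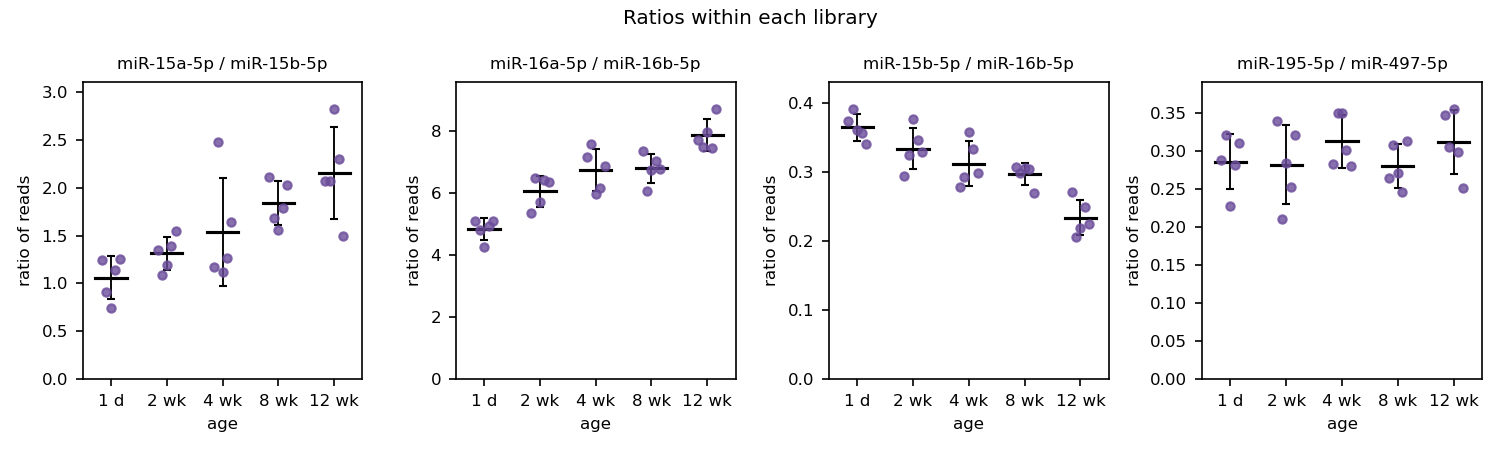
Ratios of reads within each library (y axis, each panel from 0) by age (x axis) for 4 pairs of 5p arms. Points are libraries, 5 per age, and bars are the mean ± SD. miR-16a-5p over miR-16b-5p goes from 4.84 to 7.85 and miR-15b-5p over miR-16b-5p from 0.365 to 0.234 between 1 day and 12 weeks, while miR-195-5p over miR-497-5p stays between 0.211 and 0.355 in all libraries.

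The balance of the 2 arms of a hairpin was followed in the same way. The 5p arm of miR-15b had 61.8 ± 5.95 reads per read of its 3p arm at 1 day, 72.9 ± 4.01 at 8 weeks and 79.0 ± 10.1 at 12 weeks, 1.18-fold and 1.27-fold with no overlap (exact permutation test, adjusted p = 0.0571 for both over the 36 tests). For miR-16b the ratio was 147 ± 24.8 at 1 day and 255 ± 44.2 at 12 weeks (1.73-fold, exact permutation test, adjusted p = 0.0816), with 1 library of each age in the range of the other. The arm ratios of miR-15a, miR-16a, miR-195 and miR-497 did not pass at any age, over the 36 tests or the 52.

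miR-497-3p was present in some libraries and nearly missing in the rest at the same age. It was at 25.3 RPM in 1-day replicate 4, at 29.0 and 21.4 RPM in 2-week replicates 2 and 4, and at 20.8 and 25.3 RPM in 12-week replicates 1 and 3, which rest on 207 to 329 reads. In the other 20 libraries it had at most 0.85 RPM, or 8 reads, and no read at all in 11 of them. In the 5 libraries the 3p arm made 12.6% to 18.4% of the reads of both arms, against 0.511% or less in the others. miR-497-5p was at 112 to 175 RPM in the 5 libraries and at 101 to 246 RPM in the others, so the ranges overlapped. Between one library and the next in order of reads, with 0.5 added to each, the jump was 24.4-fold. It was the widest among all entries that reach 5 RPM in any library, and the next widest was 7.67-fold. These reads are not corrected for library size, and the added 0.5 limits jumps that start at 0 reads. The 5 libraries belong to 3 ages, and the log2 change of miR-497-3p against 1 day had a standard error of 1.012 and passed at no age (limma, adjusted p of 0.408 or more).

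**Figure D5:**
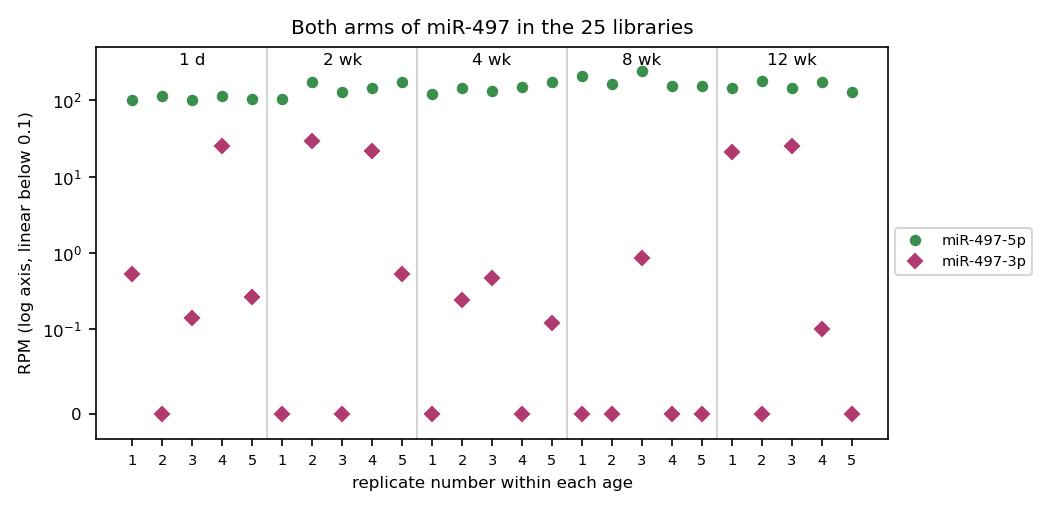
Level of both arms of miR-497 (y axis, RPM, log scale with a linear part below 0.1) in each of the 25 libraries (x axis, replicates 1 to 5 at each age). Circles are the 5p arm and diamonds the 3p arm. The 3p arm lies between 20.8 and 29.0 RPM in 5 libraries and at 0.85 RPM or below in the other 20.

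Markers of other cells were summed in the same libraries, and no list was tested for a change with age. The erythroid list was fixed as miR-451, miR-144 and miR-486, and no entry was found for miR-486. Its 4 entries were the arms of miR-451 and miR-144, none at 0 in all libraries. Their sum was 1382 to 2171 RPM at 1 day, 1148 to 3556 at 2 weeks and 1857 to 3670 at 4 weeks. It was 3239 to 4745 RPM at 8 weeks and 2733 to 4371 RPM at 12 weeks. The higher sum at 12 weeks lay in miR-451-5p, with 1486 ± 290 RPM at 1 day and 3258 ± 613 RPM at 12 weeks. The arms of miR-144 were lower at 12 weeks by mean, at 60.0 ± 27.0 and 38.6 ± 15.7 RPM for miR-144-3p and at 91.5 ± 11.7 and 66.0 ± 17.0 RPM for miR-144-5p. miR-16 is abundant in red blood cells, and the part of this list in the levels of miR-16a-5p and miR-15a-5p was not tested. The leukocyte list (6 entries) summed to 1095 to 2001 RPM at 1 day and 2136 to 3737 RPM at 12 weeks. The striated muscle list (7 entries) summed to 646 to 2186 and 6194 to 13588 RPM at these ages. Most of the muscle sum was miR-1, with a mean of 9221 RPM at 12 weeks beside 9649 RPM for the whole list. The mesenchymal list (8 entries) summed to 112846 to 139881 RPM at 1 day and 96063 to 129961 RPM at 12 weeks. The endothelial list (2 entries of miR-126) summed to 27072 to 32834 and 22008 to 27997 RPM. For both lists the ranges of these ages overlapped. At 4 weeks the mesenchymal sum ran from 97849.5 to 257063 RPM, with a median of 103810 RPM. The part of these lists in the levels of miR-195 and miR-497 was not tested either. In whole liver, fewer cells of a type and less of a miRNA per cell cannot be told apart.

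miR-424, another miRNA with the seed of the family, was lower at 12 weeks than at 1 day. So was miR-15b-5p in the deposited RPM, while miR-16a-5p, miR-15a-5p, miR-195-5p and miR-497-5p were higher. In ARS1.2 MIR424 lies in 1 cluster with MIR542 and MIR450, and both arms of the 3 were taken as the list of relatives and neighbours. miR-424-5p was at 1215, 1120, 997, 941 and 1122 RPM at 1 day and at 545, 293, 367, 270 and 308 RPM at 12 weeks, so that at birth it was above miR-15a-5p and at 12 weeks below miR-15b-5p by mean level. The ranges did not overlap (log2 change −1.64 ± 0.17, limma, Benjamini-Hochberg adjusted p = 1.47e-08, and −1.05 with median-ratio scaling). All 6 entries were called lower at 4, 8 and 12 weeks and none at 2 weeks, against 28.4%, 49.1%, 54.8% and 4.69% of all tested called lower. With median-ratio scaling 2, 5 and 6 of them were called lower at 4, 8 and 12 weeks, against 11.9%, 25.4% and 32.6%. At 2 weeks 1 was called lower without 2-week replicate 3. At 4 weeks 3 remained called lower without replicates 1 and 2, and 3 to 6 when 1 library was left out. The steepest was miR-542-3p, with a log2 change of −2.32 ± 0.13 at 12 weeks.

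Outside the family, the miRNAs nearest to each 5p arm over the 25 libraries were found by the root mean square difference of log2(RPM + 1) after centring each miRNA on its own mean, among 394 tested miRNAs. For miR-16a-5p they were miR-103-3p (0.18), miR-26a-5p (0.20) and miR-29a-5p (0.21), and for miR-16b-5p miR-191-5p (0.13), miR-23a (0.15) and miR-342-3p (0.16). For miR-15a-5p they were miR-29c-3p (0.28), miR-140-5p (0.29) and miR-28-3p (0.30), and for miR-15b-5p miR-106b-5p (0.21), let-7d-5p (0.22) and miR-331-3p (0.22). miR-195-5p had miR-140-3p (0.29), miR-145-5p (0.29) and miR-28-3p (0.30), and miR-497-5p had let-7b-5p (0.27), miR-140-3p (0.27) and miR-145-5p (0.27). miR-140-3p and miR-145-5p were thus named for both miR-195-5p and miR-497-5p, whose own difference was 0.19. Inside the family the closest were the arms of miR-15b, at 0.17. A miRNA with no change would differ from an arm by the arm's own spread. That spread was 0.35 for miR-16a-5p, 0.22 for miR-16b-5p, 0.38 for miR-15a-5p, 0.30 for miR-15b-5p, 0.35 for miR-195-5p and 0.32 for miR-497-5p. The median difference over the 394 lay between 0.43 (miR-15b-5p) and 0.63 (miR-16a-5p). All these miRNAs come from the same libraries and share their scaling.

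Where a and b copies were summed, to set aside how reads were divided between them, miR-16a-5p plus miR-16b-5p rose at 4 weeks (log2 change 0.56 ± 0.11), 8 weeks (0.66 ± 0.11) and 12 weeks (0.77 ± 0.11, limma, Benjamini-Hochberg adjusted p = 2.12e-06). miR-15a-5p plus miR-15b-5p rose at 8 weeks (0.42 ± 0.15, adjusted p = 0.0193) and did not pass at 12 weeks (0.13 ± 0.15, adjusted p = 0.455).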

How the data were processed

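The liver miRNA libraries of 25 samples (5 ages, 5 libraries each) were analysed from 1 deposited table of 463 entries, 434 with goat and 29 with sheep names. The deposited values are RPM, reads scaled by the authors to a common library size. The unit was read from the values, which are whole multiples of the value of 1 read (within 0.1 read in 100% of values) and sum to 1010981 to 1018216 per library. Frozen liver was extracted with Trizol and made into libraries with a stranded total RNA kit, per the labels' protocols. The submitters' processing notes list Bowtie 1.1.1. Nothing on trimming, size selection, genome build, annotation or multiply matching reads is given in the sources used here, so levels of near-identical entries are uncertain.

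The 405 miRNAs that reached 1 RPM in 5 or more libraries were tested. limma 3.58.1 (R 4.3.3), with its variance trend on mean level, was run on log2(RPM + 1) of all 25 libraries, 1 mean per age. Each comparison was adjusted by Benjamini-Hochberg over the 405, and called means an adjusted p under 0.05. Changes on this scale understate those of low miRNAs. Ratios used recovered reads with 0.5 added and exact two-sided permutation tests. Alternatives were median-ratio and TMM scaling, no filter or a mean level of 10 RPM or more, 0.1 or 10 in place of 1 as pseudocount, fits on the 2 ages alone, 5 reads added to ratios, a replicate block, leaving out each library, and 4-week replicates 1 and 2 together. Summing a and b copies, 4 of the ratios and the separate adjustment of the other 9 were chosen after seeing the data. The limma fit and the permutation test were checked on simulated data. Python 3.11.15 with numpy 2.4.6, pandas 2.3.3, scipy 1.17.1 and matplotlib 3.10.9 was used.

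No 2 libraries of an age were alike within counting noise (lowest chi-square per degree of freedom 49 over 50 pairs). At 4 weeks the pairs with replicate 2 stood at 2128 to 2917, and the other pairs at 49 to 451. The members, the relatives list, the marker lists and the tests were chosen with earlier results of these data known. The miRNAs named outside the family are all entries of the relatives list, the marker stems and the 3 nearest to each 5p arm. Symbols and neighbouring genes were looked up in the RefSeq table of ARS1.2.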

Additional observations from a re-analysis of the deposited data

Results flagged for a closer look

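Among 130 groups of 5 libraries (12 members and 14 ratios or sums at 5 ages), 13 had a library set apart from the other 4 by Dixon's criterion (gap over range above 0.71). Chance alone sets apart about 1 in 20 groups. For miR-195-5p, 12-week replicate 5 was low at 31.9 RPM (others 49.9 to 55.3) and 2-week replicate 5 high at 56.1 RPM (others 35.6 to 36.8). miR-497-3p was high in 1-day replicate 4 at 25.3 RPM (others at most 0.52) and in 8-week replicate 3 at 0.85 RPM, where the other 4 had no read. miR-16b-3p was high in 12-week replicate 1 at 10.5 RPM (others 5.42 to 6.75). miR-15a-3p had 0 RPM in 12-week replicate 5 and 0.2 to 0.25 RPM in the others, which are few reads.

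The 5p over 3p ratio of miR-15a was 8977 in 12-week replicate 5 (others 2815 to 4279). That of miR-16a was 7169 in 1-day replicate 2 (others 3046 to 3918) and 14937 in 12-week replicate 2 (others 4637 to 6068). That of miR-497 was 2259 in 1-day replicate 2 (others 4.43 to 476) and 271 in 8-week replicate 3 (others 2737 to 3567). All 5 of these ratios have a 3p arm of few or no reads below the line in the libraries named or in their neighbours. miR-15b-5p over miR-16b-5p was 0.27 in 8-week replicate 5 (others 0.298 to 0.308), and miR-15a-5p over miR-16a-5p was 0.0549 in 2-week replicate 2 (others 0.0741 to 0.0801).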

How the results depend on the processing

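With median-ratio and TMM scaling the members called numbered 3, 5 and 7 at 2, 4 and 8 weeks under both, and 1 at 4 against 2 weeks under both; median-ratio scaling called 1 at 8 against 4 weeks. The summed 5p level then changed by log2 0.46, 1.06 and 1.30 (median-ratio) and 0.44, 0.99 and 1.18 (TMM) at 2, 8 and 12 weeks, beside 0.24, 0.64 and 0.71 as deposited. Signs turned for miR-15b-5p at 2 weeks (0.079 and 0.056, median-ratio first), 4 weeks (0.20 and 0.16), 8 weeks (0.37 and 0.30, limma, adjusted p = 0.0123 and 0.0432) and 12 weeks (0.11, median-ratio only), miR-16b-5p at 2 weeks (0.21 and 0.19), and at 8 weeks for miR-15b-3p (0.12 and 0.054), miR-16a-3p (0.15 and 0.10) and miR-16b-3p (0.27 and 0.21). Without 4-week replicates 1 and 2, members called were 1 at 2 weeks, 5 at 4 weeks, 2 at 4 against 2 weeks, 2 at 8 against 4 weeks, 1 at 12 against 8 weeks and 8 in the F test, and at 4 weeks miR-15b-3p (0.26) and miR-15b-5p (0.27) turned. The cause was not tested. Shares of all tested miRNAs called were worked out only for the deposited and median-ratio scalings with all libraries. Member counts of the other fits, here and below, have no such share beside them.

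Leaving out 1 library gave 0 to 1, 1 to 4, 4 to 5 and 6 to 8 members called at 2, 4, 8 and 12 weeks, 4 to 8 in the F test, 0 to 1 at 4 against 2 weeks (1 without 4-week replicate 2) and none in the later steps. The count of 1 at 4 weeks came without 1-day replicate 3. The log2 change then ran from −0.050 to 0.054 for miR-16b-5p at 2 weeks, from −0.43 to 0.0046 for miR-15b-3p, −0.19 to 0.11 for miR-15b-5p and −0.076 to 0.37 for miR-16b-3p at 4 weeks, from −0.099 to 0.011 for miR-15b-5p at 8 weeks, and from −0.022 to 1.58 for miR-497-3p at 12 weeks. Pairing by replicate number was checked by the correlation of deviations from the age means. Libraries with the same number (50 correlations from −0.415 to 0.333, 11 over 0.1) were like those with different numbers (200 from −0.402 to 0.436, 53 over 0.1). No pairing was seen, and the check cannot exclude one. With the replicate number as a block, 2 members were called at 4 weeks, miR-497-5p (adjusted p = 0.0547, limma) being lost, and the other counts were the same. No filter (adjusted p = 0.0553) and a pseudocount of 10 (0.0631) lost miR-16b-3p at 12 weeks in limma. The other planned settings that were run changed no call of a member they tested. Adjusted over the ratios of the plan alone, 0 ratio tests passed, against 17 with the 4 ratios chosen afterwards in the family.

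Count models on recovered reads, which the plan named, were not run, because the low values per library were too few for the reads to be accepted as counts. Depth limits miR-15a-3p and miR-16a-3p, which rest on few reads. Which scaling holds, the division of reads between a and b copies, and the number of animals behind the libraries limit the remaining results.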

Other observations

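In the deposited RPM the 4-week libraries split in the same way for the 4 arms of miR-15b and miR-16b and for miR-15a-5p and miR-16a-5p. In replicates 1 and 2 miR-15b-5p was at 439 and 332 RPM, miR-15b-3p at 5.01 and 3.51 RPM, miR-16b-5p at 1572 and 1133 RPM and miR-16b-3p at 8.28 and 5.33 RPM. In replicates 3, 4 and 5 they were at 624 to 762, 9.93 to 13.97, 2050 to 2128 and 15 to 20.8 RPM. miR-16a-5p was at 11253 and 8572 RPM in replicates 1 and 2 against 12631 to 14278 RPM. miR-15a-5p was at 512 and 820 RPM against 851 to 1025 RPM. miR-195-5p, at 34.5 and 50.2 RPM against 44.9 to 48.1 RPM, and miR-497-5p, at 123 and 143.8 RPM against 132 to 172 RPM, overlapped between the 2 sets of libraries. After median-ratio scaling the 4 arms of miR-15b and miR-16b still lay apart, miR-16b-5p narrowly, at 1727 and 1379 against 1737 to 1880. miR-15a-5p (563 and 999 against 735 to 925) and miR-16a-5p (12366 and 10439 against 10703 to 12879) then overlapped.

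In 12-week replicate 5, miR-15a-5p (517 RPM, others 826 to 1092), miR-195-5p (31.9 RPM, others 49.9 to 55.3) and miR-497-5p (127 RPM, others 143.8 to 181) were all lowest among the 12-week libraries in the deposited RPM, as were miR-15b-5p (346 RPM, others 386 to 520) and miR-16b-5p (1541 RPM, others 1659 to 1929). miR-16a-5p, at 13424 RPM, was not (others 12363 to 14689). This library also has the lowest median-ratio divisor of that age, 0.739. Divided by it, miR-15a-5p (700.1, others 1012 to 1289) and miR-195-5p (43.2, others 56.4 to 67.8) were still lowest, while miR-497-5p (172, others 163 to 222), miR-15b-5p (468, others 456 to 588) and miR-16b-5p (2086, others 2036 to 2364) were not.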
